A study of Mus musculus with 60 samples.

Results

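Striatum and hippocampus were compared within the same 5 wild-type (WT) mice on the normal diet. All libraries labelled WT, normal diet and either striatum or hippocampus entered the comparison, and the 2 libraries of a mouse were paired by the mouse number. They made up 10 of the 60 libraries and 5 of the 20 mice of the study. The wider study crossed WT and Glo1 knockout (KO) mice with 2 diets, 5 mice per combination, and sequenced prefrontal cortex, striatum and hippocampus of each. Glo1 encodes glyoxalase 1, which starts the breakdown of methylglyoxal. The mice described here carried no knockout and ate pellets with 1.4 mg of vitamin B6 (VB6) in 100 g, over the weeks of age 8 to 12 in which other groups received a VB6-lacking feed with 5 µg in 100 g. Both regions therefore shared animal, genotype, diet, age and, per the labels, batch 2. RNA was poly(A)-selected from 2 µg of total RNA and sequenced as single reads of 75 bases. Strain, sex and the borders of the dissections are not given in the sources used here, and each library came from tissue rather than from sorted cells.

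The striatum is built mainly of medium spiny neurons, which release GABA and fall into a direct-pathway class with dopamine D1 receptors and an indirect-pathway class with D2 receptors. Dopamine and adenosine act on these cells largely through cyclic AMP, glutamate mainly through receptors that are ion channels, and the cells arise from the subpallium of the embryo. The hippocampus arises from the pallium, and its principal cells are the glutamatergic granule cells of the dentate gyrus and the pyramidal cells of fields CA1, CA2 and CA3.

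The labelled regions were checked against defining markers first. Ppp1r1b encodes DARPP-32, a phosphatase regulator of medium spiny neurons. In the order of mice 272, 273, 283, 286 and 317, which is kept throughout, its striatal values were 271, 185, 251, 258 and 281 RPKM (counts divided by gene length and library total, as deposited). Its hippocampal values were 7.74, 6.901, 3.9, 3.25 and 4.15 RPKM. Every striatal library thus lay far above every hippocampal one, and the lowest striatal value was that of mouse 273. For Prox1, the transcription factor that marks dentate granule cells, the striatal values were 4.38, 3.499, 4.14, 4.32 and 4.36 RPKM and the hippocampal values 28.7, 32.3, 30.8, 34.9 and 33.8 RPKM. The 2 ranges did not overlap, and no library went against its label. Glo1 itself was read in all 10 libraries, at 17.7, 17.8, 19.1, 23.4 and 18.2 RPKM in striatum and 28.7, 29.3, 34.7, 29.9 and 29.4 RPKM in hippocampus. Each hippocampal value of Glo1 lay above each striatal one (log2 difference -0.60, SE 0.096, BH-adjusted p 0.000354). All log2 differences are striatum minus hippocampus, from edgeR with the mouse as a block, and a gene passed where its p, adjusted over all tested genes by the Benjamini-Hochberg (BH) method, was under 0.05. They come with a standard error (SE).

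Library totals lay between 8730171 and 13384356 counts. A floor of 3 counts, set for counts of 0, corresponded to 0.224 to 0.344 CPM (counts scaled to the library total). This floor is a setting and no strict limit, and it covers counting error only. RNA integrity numbers were 8.5 to 9 in striatum and 8.3 to 8.9 in hippocampus. In a principal component analysis of all 60 libraries the first component held 57.07 percent of the variance. It placed the 5 striatal libraries at 44.83 to 50.03 and the 5 hippocampal ones at -26.44 to -23.45. Prefrontal libraries of the same mice lay at -23.82 to -21.87, so that this component set striatum apart from both. The second component, with 22.56 percent, placed hippocampus at 25.54 to 29.99, prefrontal cortex at -28.2 to -23.61 and striatum at -1.168 to 4. On the third component, with 6.398 percent, the hippocampal library of mouse 286 (-26.55) and the striatal library of mouse 273 (-19.02) stood apart from the other 4 libraries of their region in these mice, and libraries of other groups reached similar values, down to -25.85 in striatum and -23.03 in hippocampus. The hippocampal libraries of mice 272 and 273 stood apart in genes of the choroid plexus, given with those genes. Of 21999 genes in the table, 13051 had enough counts to be tested and 4635 passed (35.5 percent). Of these, 2213 were higher in striatum (17.0 percent of the genes tested) and 2422 higher in hippocampus (18.6 percent). Differences of at least 2-fold were found for 764 genes higher in striatum (5.85 percent) and 934 higher in hippocampus (7.16 percent). RPKM values of the 2 regions did not overlap for 3830 genes (29.3 percent). The median log2 difference of all tested genes was -0.0014. Calls rose to 5946 without mouse 273 and fell to 3581 without mouse 317. In bulk tissue, a lower level can come from fewer cells of a type or from less RNA per cell, and these cannot be told apart here; counting strand is not given either, so genes that overlap another gene are uncertain.

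The start regions of a striatal and a hippocampal gene, Tac1 and Prox1, are shown because both hold the letters CAGATG, an E-box form bound by NEUROD-type factors of the pallium. The 250 bases before each RefSeq start are shown 5′ to 3′ on the gene's strand in GRCm38.p6 (mm10), at chr6:7554811-7555060, plus strand, for Tac1 and at chr1:190170828-190171077, minus strand, for Prox1. Capitals mark matches on either strand to CAGATG, to TATAAA, to TGACAG (a MEIS-type motif), or to TGACG, the core of the cyclic AMP response element, whose full form TGACGTCA contains it.
Tac1: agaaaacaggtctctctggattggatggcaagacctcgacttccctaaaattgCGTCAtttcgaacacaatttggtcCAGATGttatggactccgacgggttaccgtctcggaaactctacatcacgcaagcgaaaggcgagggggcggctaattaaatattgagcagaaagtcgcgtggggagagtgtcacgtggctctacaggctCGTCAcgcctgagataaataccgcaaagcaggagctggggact
Prox1: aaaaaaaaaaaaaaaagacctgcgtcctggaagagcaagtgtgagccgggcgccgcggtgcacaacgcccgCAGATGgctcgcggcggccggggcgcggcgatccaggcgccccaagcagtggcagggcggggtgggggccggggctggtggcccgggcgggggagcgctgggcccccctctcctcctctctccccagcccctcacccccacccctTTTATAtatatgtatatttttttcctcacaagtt
Tac1, expressed in striatum, holds CAGATG and TGACG but not TATAAA in this window, and Prox1, expressed in hippocampus, holds CAGATG and TATAAA. A promoter entry was found for 10383 of the 13051 tested genes, and a gene counted where any of its entries held the letters. CAGATG occurred for 11.9 percent of all these genes. It occurred for 16.5 percent (117 of 709) of those at least 2-fold higher in hippocampus. Among those at least 2-fold higher in striatum it occurred for 13.6 percent (78 of 572). The core TGACG was found for 30.4 percent of all these genes, 21.6 percent of the hippocampal set and 24 percent of the striatal set. The full TGACGTCA was found for 3.06, 1.69 and 1.92 percent. TGACAG was present for 16.6 percent of all these genes, 15.9 percent of the hippocampal set and 19.8 percent of the striatal set. TATAAA was present for 7.75, 10 and 9.44 percent. These shares describe letters in a window and were not tested.

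Genes of medium spiny neurons were higher in striatum with 1 exception. This and the other gene lists were chosen with earlier results of these data known, so their counts are descriptions and not independent tests. All 23 genes of the list shared by both pathways were higher in striatum, against 17.0 percent of all tested genes. Each was without overlap, as were 29.3 percent of all tested genes. Their median log2 difference was 3.56, against -0.0014 over all tested genes. The list counts that follow also stand beside 17.0 percent higher in striatum and 18.6 percent higher in hippocampus among all tested genes. The summed RPKM of this list was 3438 to 3809.7 in striatum and 237 to 279 in hippocampus. Pde10a, the phosphodiesterase that breaks down cyclic AMP and cyclic GMP in these neurons, stood at 247, 222, 219.8, 235 and 256 RPKM in striatum and 9.06, 10.1, 7.89, 8.07 and 8.36 RPKM in hippocampus (log2 difference 4.83, SE 0.096, BH-adjusted p 4.74e-11). Rgs9, which speeds the end of G protein signalling downstream of D2 receptors, gave 79, 65.8, 71.6, 81.7 and 93.7 RPKM against 2.07, 2.07, 1.83, 1.34 and 1.75 RPKM (log2 difference 5.49, SE 0.13, BH-adjusted p 1.1e-10). No hippocampal library reached the lowest striatal one for either gene, which was a condition for genes named by the smallest p, as these were. Ppp1r1b, listed above, differed by 5.69 (SE 0.21, BH-adjusted p 1.35e-09), and the striatal library of mouse 273 was its lowest. Syndig1l, a synapse-associated membrane protein, had 111 to 145 RPKM in striatum and 1.63 to 2.62 in hippocampus (log2 difference 6.14). Scn4b, a sodium channel beta subunit, differed by 6.77, Pde1b, a calmodulin-dependent phosphodiesterase, by 4.10, and Adcy5, the main striatal adenylyl cyclase, by 3.73. All 23 genes passed at 2-fold or more, as did 5.85 percent of all tested genes in this direction.

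**Figure D1:**
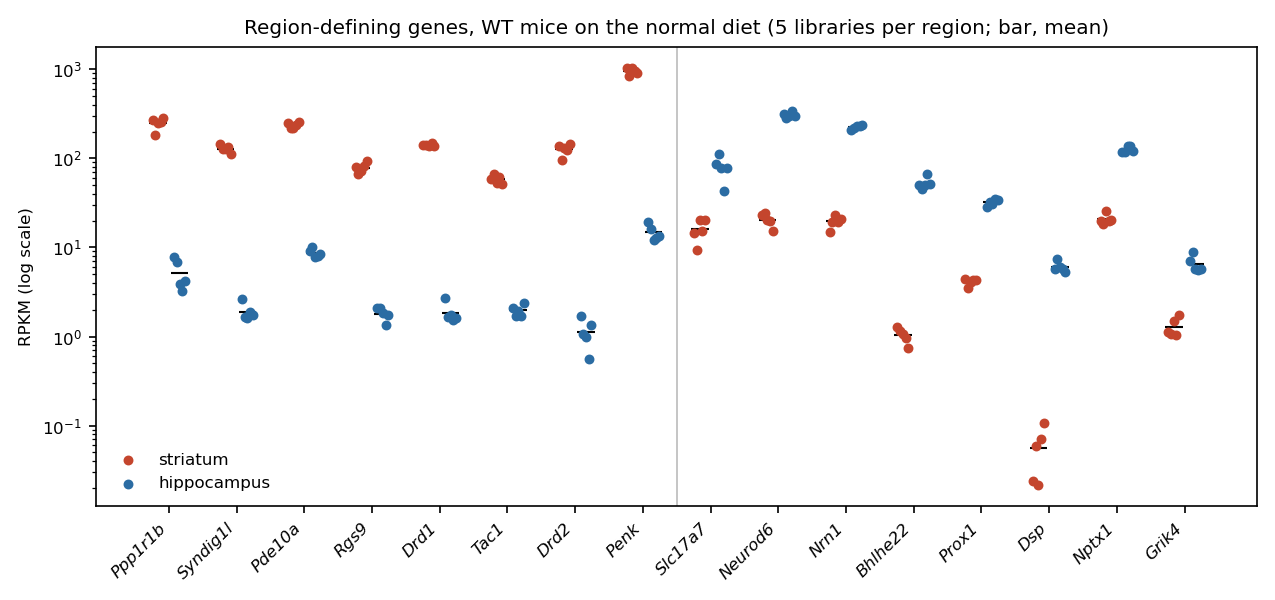
RPKM (log scale) of 8 striatal and 8 hippocampal genes in the 5 striatal (red) and 5 hippocampal (blue) libraries; points are libraries and bars are means. No gene shown has overlapping regions; Drd1 lies at 137 to 148 RPKM in striatum and 1.54 to 2.68 in hippocampus, and Prox1 at 3.499 to 4.38 and 28.7 to 34.9.

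Markers of the direct pathway were measured with 9 genes, of which 8 were higher in striatum and 1 was higher in hippocampus (median log2 difference 3.35). Drd1, the D1 dopamine receptor at chr13:54051183-54055658 (minus strand), had 140.5, 142, 138, 148 and 137 RPKM in striatum and 2.68, 1.65, 1.74, 1.54 and 1.63 RPKM in hippocampus. Its log2 difference was 6.33, SE 0.14, BH-adjusted p 5.49e-11, and the hippocampal library of mouse 272 was the highest of its region. Tac1, the precursor of substance P, whose promoter is shown above, had 59.1, 67.5, 52.6, 62.2 and 51.8 RPKM in striatum and 2.08, 1.71, 1.92, 1.72 and 2.39 RPKM in hippocampus (log2 difference 4.95, SE 0.14, BH-adjusted p 3.2e-10). For both genes the lowest striatal library lay far above the highest hippocampal one. Pdyn, which encodes prodynorphin, differed by 3.35, the muscarinic receptor gene Chrm4 by 3.14, the orphan transporter gene Slc35d3 by 5.81 and the transcription factor gene Isl1 by 6.62, with Isl1 at 0 counts in 3 of the 5 hippocampal libraries and at a difference of 7.54 without mouse 273. Eya1, a transcriptional coactivator on this list, was higher in hippocampus, at 3.23 to 5.01 RPKM against 2.28 to 2.49 RPKM (log2 difference -0.63, SE 0.11, BH-adjusted p 0.00073).

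Indirect-pathway markers were higher in striatum for all 6 tested genes, with a median log2 difference of 6.47; Gpr52 of this list has no row. Drd2, the D2 dopamine receptor at chr9:49340360-49408177 (plus strand), had 138, 95.1, 130.1, 123 and 144 RPKM in striatum and 1.68, 1.06, 0.987, 0.559 and 1.36 RPKM in hippocampus (log2 difference 6.85, SE 0.15, BH-adjusted p 5.49e-11). Adora2a, the adenosine receptor of the indirect pathway at chr10:75316877-75334792 (plus strand), had 40.05, 28.6, 42.6, 44.5 and 40.4 RPKM in striatum and 0.164, 0.0763, 0.0805, 0.0855 and 0.216 RPKM in hippocampus (log2 difference 8.27, SE 0.18, BH-adjusted p 5.49e-11). Mouse 273 gave the lowest striatal value of both receptors, and its library was still above all 5 hippocampal libraries. Penk, the precursor of enkephalins at chr4:4133536-4138815 (minus strand), reached 1036, 838, 1034, 961 and 899.6 RPKM in striatum and 19.5, 16.3, 12.04, 12.7 and 13.4 RPKM in hippocampus (log2 difference 6.09, SE 0.12, BH-adjusted p 4.74e-11). It was abundant in every striatal library, and that of mouse 273 was again lowest. Of the stretches of 75 bases in its transcripts, 5.53 percent are shared with A830012C17Rik, an overlapping transcript on the other strand. Gpr6, an orphan receptor, differed by 7.24, or by 8.94 without mouse 273, whose hippocampal library held most of its hippocampal signal (0.436 RPKM). Sp9, a zinc finger factor, differed by 2.09. Upb1, a pyrimidine-degrading enzyme, was low in both regions, at 0.509 to 0.827 RPKM and 0 to 0.0473 RPKM, and differed by 4.80.

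Transcription factors of the subpallium were higher in striatum in 19 of 25 tested genes, 2 were higher in hippocampus and 4 did not pass (median log2 difference 2.45). Foxp2, a forkhead factor, had 12.97, 15.2, 11.6, 11.7 and 10.5 RPKM in striatum and 0.286, 0.142, 0.249, 0.311 and 0.324 RPKM in hippocampus (log2 difference 5.61, SE 0.21, BH-adjusted p 1.91e-09). Six3, a homeobox factor of the ventral forebrain, had 29.5, 28.7, 28.96, 24.6 and 22.7 RPKM in striatum and 0.515, 0.391, 0.0936, 0.119 and 0.0839 RPKM in hippocampus (log2 difference 6.91, SE 0.26, BH-adjusted p 1.6e-09). In the hippocampus the libraries of mice 272 and 273 held more Six3 than the other 3, yet none came near the striatal range. Rxrg, a retinoid X receptor, had 49.2, 36.9, 50.7, 52.9 and 51.7 RPKM in striatum and 1.04, 0.842, 1.11, 0.801 and 0.637 RPKM in hippocampus (log2 difference 5.82, SE 0.14, BH-adjusted p 1.1e-10), and its partner Rarb, a retinoic acid receptor, differed by 4.91. Meis2, a homeobox factor at 74.8 to 94.3 RPKM in striatum and 6.54 to 8.67 RPKM in hippocampus, differed by 3.54 and its relative Meis1 by 3.61. Bcl11b, also called Ctip2, differed less, by 1.31, with the hippocampus at 33.4 to 50.4 RPKM beside 78.6 to 111 RPKM in striatum, and Foxp1 differed by 2.45. The 2 factors higher in hippocampus were Dlx1, which is kept by adult interneurons, at 1.51 to 2.98 RPKM in striatum and 3.38 to 5.399 RPKM in hippocampus (log2 difference -1.05, BH-adjusted p 0.000599), and Ikzf2, at 0.522 to 0.7299 and 0.985 to 1.74 RPKM (-0.94, BH-adjusted p 0.000599).

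Other genes with the strongest striatal differences were Syt6, Serpina9, Sh3rf2 and Lhx8. Syt6, a synaptotagmin, had 48.5 to 62.97 RPKM in striatum and 1.54 to 2.16 RPKM in hippocampus (log2 difference 4.99), with 7.03 percent of its 75-base stretches shared with other genes. Serpina9, a serine protease inhibitor of the serpin family, had 14.2, 10.03, 11.2, 13.2 and 13.6 RPKM in striatum, 2376 counts in all, and 1 count over the 5 hippocampal libraries. Sh3rf2, a putative ubiquitin ligase, had 20.4 to 29.4 RPKM in striatum and 0 to 0.0979 RPKM in hippocampus (log2 difference 9.01, SE 0.27, BH-adjusted p 3.85e-10). Lhx8, a homeobox factor of cholinergic neurons, had 1.99, 2.24, 1.47, 2.21 and 1.91 RPKM in striatum, 262 counts in all, and 0 counts in all 5 hippocampal libraries. Against a floor of 3 counts over the hippocampal group, Lhx8 was 83.8-fold higher in striatum.

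Genes of the pallium and of glutamatergic neurons were higher in hippocampus. Among 27 tested pallial transcription factors, 18 were higher in hippocampus, 3 were higher in striatum and 6 did not pass (median log2 difference -1.30). Among all tested genes 18.6 percent were higher in hippocampus and 17.0 percent in striatum. Neurod6, a basic helix-loop-helix factor of pyramidal neurons at chr6:55677818-55681263 (minus strand), had 22.9, 24.3, 20.2, 19.9 and 15.5 RPKM in striatum and 316, 284, 300.2, 344 and 296 RPKM in hippocampus (log2 difference -3.86, SE 0.13, BH-adjusted p 8.95e-10). Bhlhe22, of the same class and at chr3:18054325-18057514 (plus strand), had 1.27, 1.16, 1.05, 0.961 and 0.739 RPKM in striatum and 50.2, 45.1, 50.7, 66.3 and 51.6 RPKM in hippocampus (log2 difference -5.62, SE 0.16, BH-adjusted p 3.39e-10). Both were read in every striatal library, but at levels far below the hippocampus. Lhx9, a homeobox factor at chr1:138825186-138848839 (minus strand), had 0.0241, 0.00998, 0.0109, 0.00787 and 0.0325 RPKM in striatum and 4.25, 4.45, 4.99, 5.898 and 4.79 RPKM in hippocampus (log2 difference -8.09, SE 0.24, BH-adjusted p 3.72e-10). Its hippocampal values formed a tight group, and its striatal values lay near the limit of detection. Neurod2 differed by -3.63, Emx1, which marks the pallial lineage, by -3.61, Fezf2 by -3.06, and Zbtb20, a factor of hippocampal pyramidal and granule cells, by -1.13. The 3 factors higher in striatum were Cux1 (5.33 to 5.77 against 2.14 to 2.496 RPKM, log2 difference 1.31), Pou3f1 (0.53) and Mef2c (0.44). The last 2 did not pass without mouse 272, and Mef2c also not without mouse 283, so that the count of 3 became 1 without mouse 272.

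Dentate granule cell markers were higher in hippocampus for 12 of 14 genes (median log2 difference -1.82), against 18.6 percent of all tested genes. Prox1, whose values and promoter were given first, differed by -2.90 (SE 0.095, BH-adjusted p 6.42e-10). C1ql2, a complement-like synaptic organiser of mossy fibres at chr1:120340582-120343174 (plus strand), had 0, 0.0474, 0.0518, 0.149 and 0.0515 RPKM in striatum and 19.3, 16.3, 13.7, 22.6 and 14.4 RPKM in hippocampus (log2 difference -7.88, SE 0.26, BH-adjusted p 6.46e-10). Dsp, which encodes desmoplakin, had 0.0238, 0.05904, 0.0215, 0.0699 and 0.107 RPKM in striatum and 5.72, 7.45, 6.02, 5.67 and 5.31 RPKM in hippocampus (log2 difference -6.62, SE 0.24, BH-adjusted p 1.21e-09). Lct, the lactase gene, differed by -7.47 and Tdo2, a tryptophan-degrading enzyme, by -4.94. In striatum C1ql2, Dsp, Lct and Tdo2 had at most 0.149 RPKM. Pdia5, a protein disulfide isomerase, was the 1 gene of the list higher in striatum, at 1.36 to 2.35 RPKM against 0.359 to 0.909 RPKM (log2 difference 1.80, SE 0.32, BH-adjusted p 0.000875). Without mouse 273, 2 genes of the list were higher in striatum instead of 1.

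Markers of the pyramidal cell fields CA1 and CA2 were less uniform in direction than those of dentate granule cells. For CA1, 5 of 9 genes were higher in hippocampus and 2 in striatum (median -1.43), beside 18.6 and 17.0 percent of all tested genes. The striatal count is thus near the share of all tested genes. Fibcd1, a membrane receptor that binds acetylated groups, had 0.868, 0.598, 0.698, 0.928 and 1.21 RPKM in striatum and 8.05, 10.6, 7.17, 4.54 and 6.89 RPKM in hippocampus (log2 difference -3.01, SE 0.22, BH-adjusted p 4.1e-07), with the library of mouse 286 lowest in its region. Gpr161, an orphan receptor, differed by -3.73, Ndst4, a heparan sulphate enzyme, by -3.09, and Mpped1 by -1.43. Wfs1, the gene for wolframin of the endoplasmic reticulum, went the other way with 16.1, 14.4, 23.9, 16.1 and 23.98 RPKM in striatum and 12.1, 13.2, 10.7, 7.66 and 9.32 RPKM in hippocampus (log2 difference 0.89, SE 0.15, BH-adjusted p 0.000552). The other CA1 gene higher in striatum was Pou3f1, so that without mouse 272 only Wfs1 remained.

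CA2 markers were higher in hippocampus for 4 of 7 genes and higher in striatum for 1, with a median of -1.08. The striatal count is again near the 17.0 percent of all tested genes, of which 18.6 percent were higher in hippocampus. Ntf3, the growth factor neurotrophin 3, had 0.0668 to 0.276 RPKM in striatum and 2.68 to 3.497 RPKM in hippocampus (log2 difference -4.31), and Amigo2, an adhesion protein, differed by -1.70. Pcp4, a regulator of calmodulin, was the gene higher in striatum, with 2054, 1911, 1914, 1715 and 1647 RPKM there and 195, 162, 157, 174 and 163 RPKM in hippocampus (log2 difference 3.50, SE 0.1, BH-adjusted p 2.99e-10). It had the highest RPKM of the genes described here, and it overlaps Igsf5 on the same strand. For CA3, 9 of 10 genes were higher in hippocampus and 1 in striatum (median -1.86). Nptx1, a neuronal pentraxin that gathers AMPA receptors, had 19.7, 18.4, 25.3, 19.96 and 20.5 RPKM in striatum and 118, 116, 136, 137 and 121 RPKM in hippocampus (log2 difference -2.54, SE 0.091, BH-adjusted p 1.28e-09). Grik4, a kainate receptor subunit of CA3, had 1.11, 1.06, 1.51, 1.03 and 1.74 RPKM in striatum and 6.97, 8.84, 5.695, 5.54 and 5.67 RPKM in hippocampus (log2 difference -2.28, SE 0.17, BH-adjusted p 7.25e-07). Both genes were read in all striatal libraries without reaching the hippocampal range. Coch, which encodes cochlin, was the CA3 list gene higher in striatum, with 39.2, 42.5, 45.3, 50.5 and 54.2 RPKM there and 3.49, 2.63, 1.41, 1.98 and 1.57 RPKM in hippocampus (log2 difference 4.47, SE 0.20, BH-adjusted p 8.68e-09).

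Of 14 genes of glutamatergic neurons, 13 were higher in hippocampus and 1 in striatum (median -1.82), against 18.6 and 17.0 percent of all tested genes. Slc17a7, the vesicular glutamate transporter VGLUT1 at chr7:45163921-45176139 (plus strand), had 14.5, 9.29, 20.4, 15.3 and 20.1 RPKM in striatum and 86.9, 110.4, 77.9, 42.9 and 77.3 RPKM in hippocampus (log2 difference -2.23, SE 0.22, BH-adjusted p 5.81e-06). The hippocampal library of mouse 286 held the least Slc17a7 of its region but more than any striatal library. Nrn1, the growth protein neuritin, had 14.98, 19.4, 23.2, 19.5 and 20.9 RPKM in striatum and 209, 216, 228, 232 and 239 RPKM in hippocampus (log2 difference -3.47, SE 0.10, BH-adjusted p 3.26e-10). Fars2 overlaps it on the other strand and shares 19.1 percent of its 75-base stretches. Cpne6, a calcium-binding copine, differed by -3.43 and Spink8, a protease inhibitor, by -3.84. Slc17a8, the transporter VGLUT3 that cholinergic neurons also carry, was higher in striatum, at 6.31 to 7.07 RPKM against 1.23 to 1.68 RPKM (log2 difference 2.29, SE 0.13, BH-adjusted p 5.88e-08).

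The remaining genes with the smallest hippocampal p-values lay outside these lists. Cabp7, a calcium sensor, had 1.31, 1.77, 1.66, 2.08 and 1.37 RPKM in striatum and 35.1, 39.03, 33.3, 34.9 and 30.2 RPKM in hippocampus (log2 difference -4.33, SE 0.12, BH-adjusted p 2.7e-10), and shares 10.5 percent of its 75-base stretches with Zmat5. Shisa6, an auxiliary protein of AMPA receptors, had 3.14, 2.301, 2.64, 2.45 and 2.81 RPKM in striatum and 37, 40.7, 35.1, 32.3 and 33.7 RPKM in hippocampus (log2 difference -3.69, SE 0.10, BH-adjusted p 2.71e-10). These genes had low and even striatal levels. Their lack of overlap was a condition for genes named by the smallest p, so it is not a result. Pcdh20, a protocadherin, differed by -4.04, Itga4, an integrin subunit, by -3.09, Nov, a secreted matricellular protein, by -3.04, Sphkap, an anchor of protein kinase A, by -2.91, and Nrip3 by -2.68. By fold, the genes named for the widest hippocampal differences were Syna, Ttr, Krt2, Lhx9 and C1ql2. Syna, a syncytin of retroviral origin, had 388 counts in hippocampus and 0 in striatum. Against a floor of 3 counts over the striatal group, Syna was 134.7-fold higher in hippocampus. Krt2, a keratin, had 242 counts in hippocampus and 0 in striatum and was 84.0-fold higher against the same floor. Its hippocampal values were 2.55, 2.81, 1.68, 1.08 and 1.15 RPKM. Its libraries of mice 272 and 273 were the highest.

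**Figure D2:**
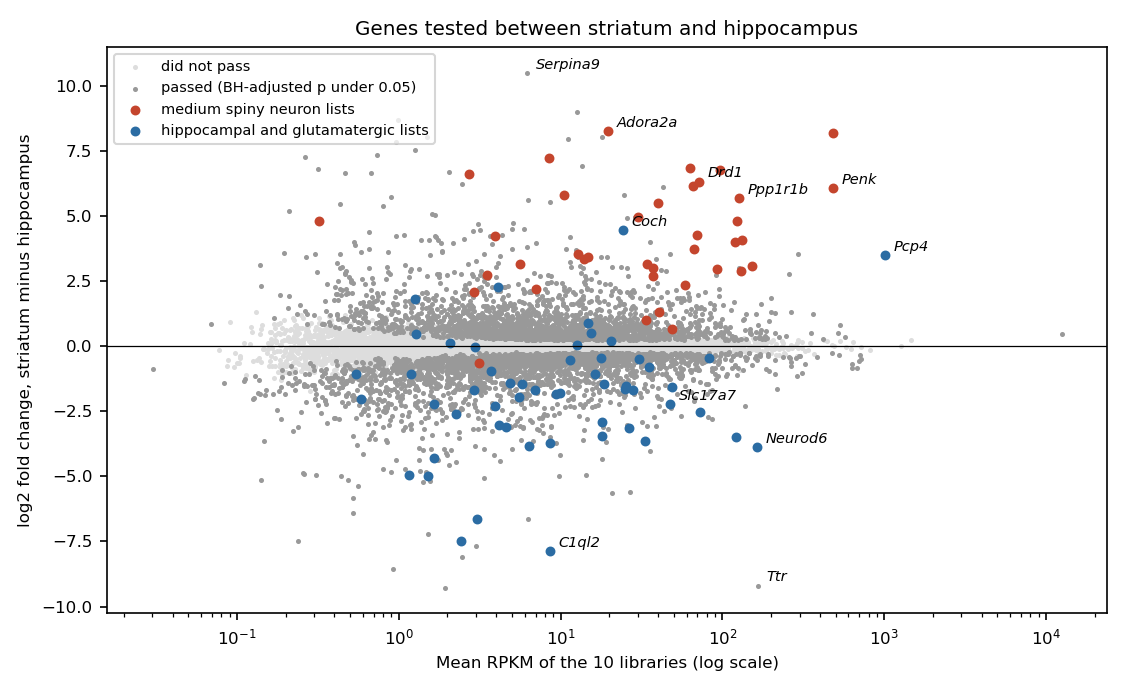
Log2 difference between striatum and hippocampus against the mean RPKM of the 10 libraries (log scale) for the 13051 tested genes; dark grey points passed, pale ones did not, red points are medium spiny neuron genes and blue points hippocampal and glutamatergic genes. Red points lie above 0 except Eya1 (-0.63), and the blue points high above 0 include Pcp4 (3.50) and Coch (4.47).

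Counts of list members below stand beside 17.0 percent higher in striatum and 18.6 percent higher in hippocampus among all tested genes. Dopamine signalling genes were higher in striatum in 10 of 16 tested cases and higher in hippocampus in 2 (median log2 difference 2.40). Besides the receptors and Ppp1r1b, Gnal, the G protein alpha subunit that couples D1 receptors to adenylyl cyclase, had 261 to 279.5 RPKM in striatum and 30.6 to 35.6 RPKM in hippocampus (log2 difference 3.09). Drd5, the D5 receptor, was higher in hippocampus with 0.421 to 0.945 RPKM in striatum and 2.199 to 4.08 RPKM in hippocampus (log2 difference -2.15, SE 0.23, BH-adjusted p 1.52e-05). Slc18a2, the vesicular monoamine transporter, was low in both regions and differed by -2.02. The dopamine transporter gene Slc6a3 and the receptor genes Drd3 and Drd4 had too few counts to be tested.

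Enzymes of cyclic AMP split between the regions, with 15 of 29 higher in striatum, 11 higher in hippocampus and 3 that did not pass (median 0.34). Among adenylyl cyclases, Adcy5 had 129.7, 101, 131, 124 and 129.8 RPKM in striatum and 11.1, 11.4, 9.79, 7.496 and 8.897 RPKM in hippocampus (log2 difference 3.73, SE 0.11, BH-adjusted p 4.57e-10). Adcy1, a calcium-stimulated cyclase, had 26.8, 25.2, 29.5, 30.5 and 32.1 RPKM in striatum and 101, 100.1, 107, 97.4 and 94.5 RPKM in hippocampus (log2 difference -1.74, SE 0.085, BH-adjusted p 1.56e-08). These cyclases were thus high in opposite regions, each without overlap. Adcy2 (-1.13), Adcy6 (-1.10) and Adcy8 (-1.69) were also higher in hippocampus. Phosphodiesterases divided likewise: Pde7b, specific for cyclic AMP, had 60.8 to 76.1 RPKM in striatum and 4.06 to 4.68 RPKM in hippocampus (log2 difference 3.997), whereas Pde1a had 18.7 to 24.7 and 65.3 to 77.5 RPKM (-1.59). The stimulatory alpha subunits showed the same division, since Gnas was higher in hippocampus (-1.24) and Gnal in striatum.

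Ionotropic glutamate receptor subunits were higher in striatum for 7 of 17 tested genes and in hippocampus for 6 (median 0.03). The AMPA receptor subunit gene Gria1 had 122 to 136 RPKM in striatum and 249.4 to 286 RPKM in hippocampus (log2 difference -0.96), and the NMDA receptor subunit gene Grin2a 13.9 to 15.9 and 37.6 to 44.6 RPKM (-1.41). Grik1 (-1.72), Grik4 and Grin3a (-0.92) were also higher in hippocampus, and Grik3 (1.37) was higher in striatum. Metabotropic receptors were higher in striatum in 5 of 7 cases and higher in hippocampus in 1. Grm2, a presynaptic receptor, had 0.234, 0.0774, 0.423, 0.321 and 0.147 RPKM in striatum and 4.695, 3.75, 2.98, 4.91 and 3.36 RPKM in hippocampus (log2 difference -3.995, SE 0.27, BH-adjusted p 2.69e-07). Its striatal level was low in all mice. Grm4, another receptor of the inhibitory kind, had 4.56 to 8.64 RPKM in striatum and 0.564 to 1.37 RPKM in hippocampus (log2 difference 3.19), and Grm5 differed by 0.61.

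Genes for making and moving GABA were higher in striatum for 4 of 8 and in hippocampus for 2, 1 without mouse 272, 283 or 317. Gad2, a glutamate decarboxylase, had 174, 205, 170.4, 171 and 174 RPKM in striatum and 56.1, 55.02, 50.97, 70.2 and 53.5 RPKM in hippocampus (log2 difference 1.71, SE 0.11, BH-adjusted p 1.83e-07). The striatal library of mouse 273 and the hippocampal library of mouse 286 were the highest of their regions. The other decarboxylase gene Gad1 differed by 1.02, the vesicular GABA transporter gene Slc32a1 by 2.21 and the GABA transaminase gene Abat by 1.17. Slc6a11, a GABA transporter of astrocytes, was higher in hippocampus (-0.64). Of 13 tested GABA-A receptor subunits, 3 were higher in striatum and 6 in hippocampus (median -0.16). Gabra5, a subunit of receptors outside synapses in hippocampal pyramidal cells, had 22.2, 23.2, 21.99, 20.1 and 16.03 RPKM in striatum and 156, 132, 132, 162 and 128 RPKM in hippocampus (log2 difference -2.72, SE 0.12, BH-adjusted p 5.06e-09). Gabrd, the delta subunit, had 11.6, 9.06, 14.3, 14.01 and 15.6 RPKM in striatum and 2.02, 2.42, 2.06, 1.28 and 2.48 RPKM in hippocampus (log2 difference 2.702, SE 0.17, BH-adjusted p 1.24e-07). These subunits separated the regions in opposite directions, and Gabra4 (1.24) and Gabrg3 (1.53) followed Gabrd.

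Neuropeptide precursors were higher in striatum for 5 of 15 tested genes and in hippocampus for 5 (median 0.018). After Penk, Tac1 and Pdyn, the thyrotropin-releasing hormone precursor Trh was higher in striatum, at 1.32 to 3.59 RPKM against 0 to 0.225 RPKM (log2 difference 4.10). Cck, the cholecystokinin precursor, had 26.9, 18.4, 27.2, 26.1 and 24.1 RPKM in striatum and 126, 115, 105, 88.8 and 109.7 RPKM in hippocampus (log2 difference -2.09, SE 0.11, BH-adjusted p 3.61e-08). Grp, the gastrin-releasing peptide precursor, had 8.39 to 16.6 RPKM in hippocampus and at most 0.353 RPKM in striatum, with 0 counts in 3 striatal libraries (-6.62, and -8.47 without mouse 286). Interneuron markers were higher in striatum in 7 of 15 cases and in hippocampus in 6. Chat, the enzyme that makes acetylcholine, had 3.302, 1.85, 3.83, 2.87 and 3.04 RPKM in striatum, 431 counts in all, and 1 count over the 5 hippocampal libraries. Slc5a7, the choline transporter of cholinergic terminals, had 14.4 to 19.6 RPKM in striatum and 0.2802 to 0.442 RPKM in hippocampus (log2 difference 5.54, SE 0.17, BH-adjusted p 5.03e-10). Both genes were read in every striatal library. Calb2, the gene for calretinin, was higher in hippocampus (0.652 to 1.12 against 8.83 to 11.8 RPKM, log2 difference -3.59), as were Vip (-2.35) and Pvalb, the parvalbumin gene (-1.52). Reln, the gene for reelin, was higher in striatum (2.02).

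Receptors for acetylcholine numbered 2 higher in striatum and 4 higher in hippocampus of 9 tested (median -0.40). Chrm4 and Chrm2 (0.57) were the striatal ones, and Chrm1 (-0.41), Chrm3 (-1.06), Chrm5 (-1.74) and the nicotinic subunit gene Chrna5 (-2.44) the hippocampal ones. With mice 272 and 273 left out, which was added after seeing the data, 4 receptor genes of this list were higher in striatum. Serotonin receptors were higher in striatum in 4 of 11 cases and in hippocampus in 6 (median -0.52). Htr1b, an autoreceptor and terminal receptor, had 26.7, 28.2, 34.5, 36.4 and 35.99 RPKM in striatum and 2.75, 3.07, 3.71, 3.28 and 2.75 RPKM in hippocampus (log2 difference 3.43, SE 0.10, BH-adjusted p 4.27e-10). Htr1a, of the same receptor class, had 0.645, 0.9597, 1.47, 1.08 and 0.951 RPKM in striatum and 8.08, 8.77, 8.197, 9.78 and 8.71 RPKM in hippocampus (log2 difference -3.05, SE 0.16, BH-adjusted p 2.65e-08). These related receptors lay high in opposite regions without overlap. Htr1d (6.25), Htr2a (1.05) and Htr2c (0.76) were higher in striatum, and Htr7 (-1.80), Htr4 (-1.55) and Htr3a (-2.06) in hippocampus. Htr5b had 2 counts in striatum and 107 in hippocampus.

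Of 8 tested receptors for opioids, cannabinoids and adenosine, 5 were higher in striatum and 2 in hippocampus (median 1.41). Oprk1, the kappa opioid receptor, had 9.22, 13.3, 8.58, 9.16 and 8.496 RPKM in striatum and 0.511, 0.433, 0.2897, 0.402 and 0.2797 RPKM in hippocampus (log2 difference 4.74, SE 0.15, BH-adjusted p 4.77e-10). Mouse 273 had the highest striatal value. Cnr1, the CB1 cannabinoid receptor, had 107 to 130.0 RPKM in striatum and 44.4 to 54.3 RPKM in hippocampus (log2 difference 1.27), and Oprd1 (1.66) and Oprm1 (1.55) were also higher in striatum. Adora1, another adenosine receptor, was higher in hippocampus (-0.63), opposite to Adora2a. The other receptor higher in hippocampus, Oprl1 (-0.62), did not pass without mouse 272, 283 or 317.

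Potassium channels were higher in striatum in 18 of 38 cases and in hippocampus in 14 (median 0.25). Kcna5, a delayed rectifier, had 7.64, 10.1, 7.68, 7.73 and 8.02 RPKM in striatum and 0.581, 0.473, 0.285, 0.568 and 0.319 RPKM in hippocampus (log2 difference 4.27, SE 0.20, BH-adjusted p 1.06e-08). Kcnj6, a G protein-gated inward rectifier also called GIRK2, had 1.48, 0.9296, 1.14, 0.991 and 1.28 RPKM in striatum and 10.3, 10.9, 11.01, 9.94 and 10.6 RPKM in hippocampus (log2 difference -3.14, SE 0.13, BH-adjusted p 4.2e-09). Its partner subunits Kcnj3 (-2.31) and Kcnj9 (-0.72) were also higher in hippocampus, so that 3 GIRK subunit genes shared this direction. Kcnc2 (-2.34) and Kcnc4 (-2.23), which carry fast repolarising currents, were higher in hippocampus as well, and Kcna4 (1.64) and Kcnab1 (1.96) in striatum. Of 12 calcium channel subunits, 5 were higher in striatum and 1, the T-type channel gene Cacna1g (-1.26), in hippocampus. Another T-type gene, Cacna1i, was higher in striatum (4.13 to 7.12 against 1.801 to 2.82 RPKM, log2 difference 1.38).

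Retinoic acid genes were higher in striatum in 8 of 16 cases and in hippocampus in 5, 3 without mouse 272 or 283 (median 0.40). Beside the receptors Rarb and Rxrg, the binding protein gene Crabp1 had 5.71, 3.897, 5.56, 4.84 and 3.98 RPKM in striatum and 0.259, 0.241, 0.509, 0.135 and 0.228 RPKM in hippocampus (log2 difference 4.11, SE 0.35, BH-adjusted p 1.86e-06). Cyp26b1, which degrades retinoic acid, had 0.155 to 0.363 RPKM in striatum and 1.902 to 2.28 RPKM in hippocampus (log2 difference -2.99). The receptor gene Rara was also higher in hippocampus (-1.28). Wnt pathway genes were higher in striatum in 5 of 19 cases and in hippocampus in 8 (median -0.18). Wnt8b (3.04) and the receptor gene Fzd5 (1.95) were higher in striatum at levels of at most 1.12 RPKM. The agonist gene Rspo2 (-2.20) and the ligand genes Wnt5a (-1.67) and Wnt7b (-1.57) were higher in hippocampus.

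Kinases and calcium sensors of plasticity were higher in striatum in 8 of 18 cases and in hippocampus in 6 (median 0.20). Camk4, a nuclear calmodulin kinase, had 146 to 172 RPKM in striatum and 33.04 to 35.7 RPKM in hippocampus (log2 difference 2.22). Camk2a, the abundant synaptic kinase, had 209, 152, 215, 191 and 216 RPKM in striatum and 473, 491, 403, 329 and 406 RPKM in hippocampus (log2 difference -1.03, SE 0.11, BH-adjusted p 1.01e-05). The lowest hippocampal value, in mouse 286, lay above the highest striatal one. The protein kinase C gene Prkcb was higher in striatum (1.06). Adhesion and guidance genes were even, with 10 of 25 higher in each region. Plxnd1, a semaphorin receptor, had 8.86 to 13.98 RPKM in striatum and 1.44 to 2.01 RPKM in hippocampus (log2 difference 2.83), and the ephrin receptor gene Ephb1 was also higher in striatum (1.41). The guidance ligand gene Slit1 had 0.944 to 1.59 RPKM in striatum and 8.999 to 19.4 RPKM in hippocampus (log2 difference -3.32), with Slit2 (-2.20) and Sema5a (-2.31) in the same direction.

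Immediate early genes, which neurons switch on after activity, were higher in striatum in 11 of 19 cases and in hippocampus in 6 (median 0.63). Egr1, a zinc finger factor, had 55.6, 49.2, 101, 101 and 105 RPKM in striatum and 19.01, 19.8, 24.4, 27.97 and 23.5 RPKM in hippocampus (log2 difference 1.84, SE 0.11, BH-adjusted p 9.33e-08). Jun, a subunit of AP-1, had 5.24, 5.61, 7.99, 7.73 and 6.103 RPKM in striatum and 26.2, 25.2, 31.2, 35.1 and 23.9 RPKM in hippocampus (log2 difference -2.06, SE 0.097, BH-adjusted p 1.17e-08). Both separated the regions in every library, in opposite directions, and the striatal libraries of mice 272 and 273 held the least Egr1. Egr2 (2.68) and Homer1 (1.25) were higher in striatum. Bdnf, the brain-derived neurotrophic factor, had 1.51 to 2.32 RPKM in striatum and 10.9 to 15.1 RPKM in hippocampus (log2 difference -2.75), and Nr4a3 (-2.35) and Btg2 (-0.87) were also higher in hippocampus. Genes of progenitors and newborn neurons numbered 1 higher in striatum, Ccnd2 (0.45), and 2 higher in hippocampus, Calb2 and Stmn2 (-1.27), of 12 tested, shares no greater than those of all tested genes (17.0 and 18.6 percent). Without mouse 286, 3 were higher in striatum, and without mouse 273, 4 were higher in hippocampus.

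**Figure D3:**
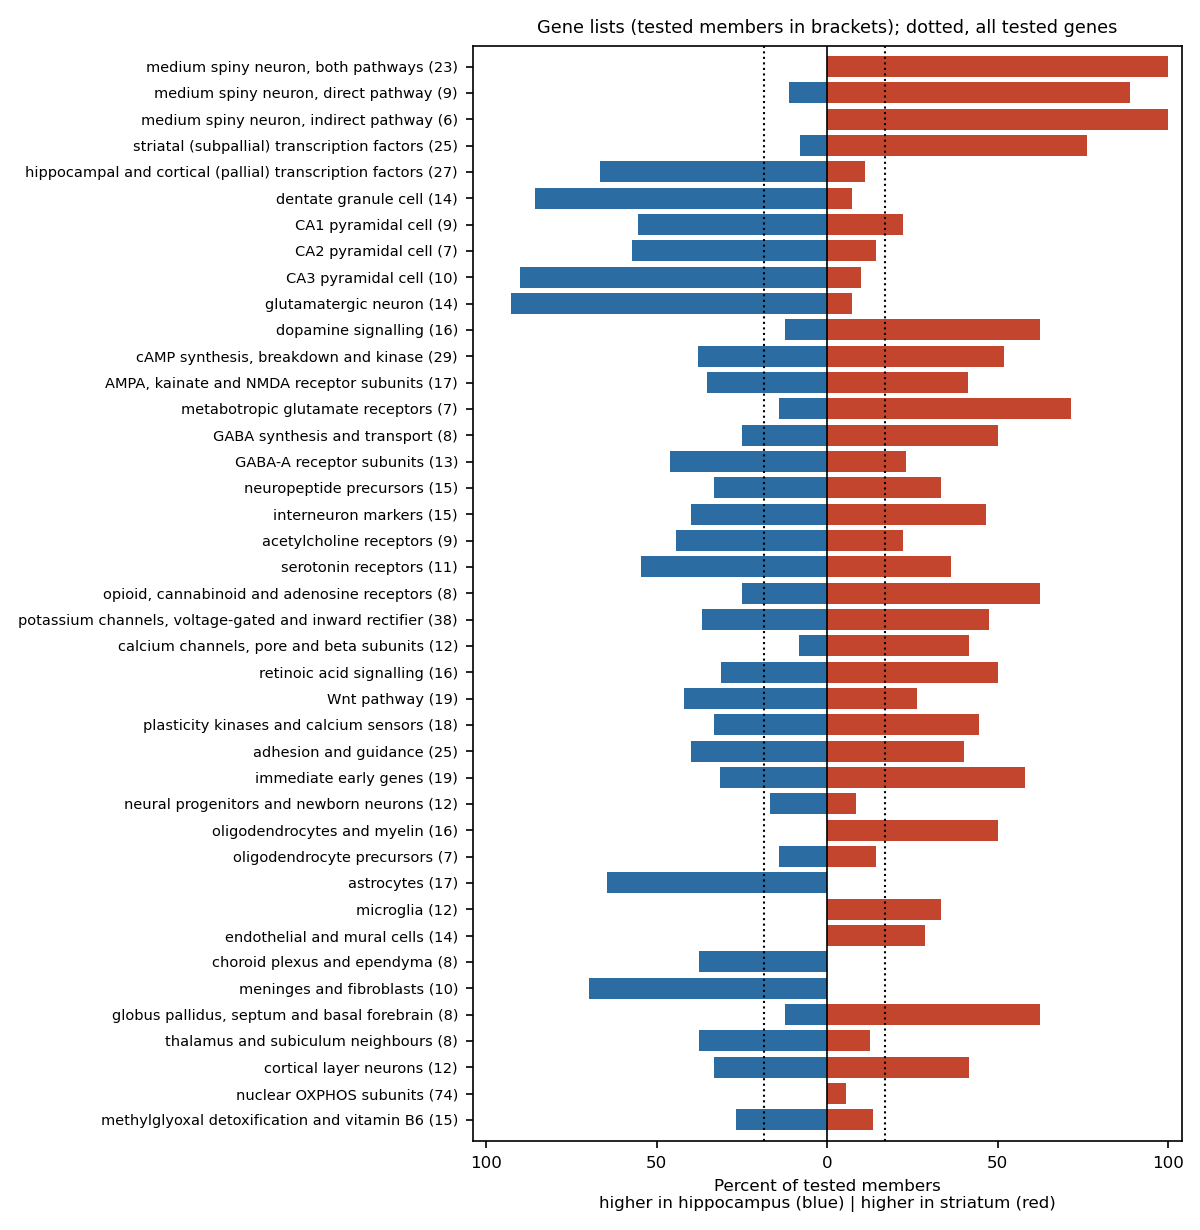
Percent of the tested members of each of the 41 gene lists that were higher in striatum (red, right) or in hippocampus (blue, left), with the number tested in brackets; dotted lines give the same for all tested genes, 17.0 and 18.6 percent. The medium spiny neuron lists reach furthest to the right and the glutamatergic, CA3 and dentate lists furthest to the left. The lists were chosen with earlier results of these data known.

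Astrocyte genes were higher in hippocampus in 11 of 17 cases and in striatum in 0 (median -0.50). Gfap, the intermediate filament of astrocytes, had 6.27, 6.85, 5.67, 9.76 and 6.47 RPKM in striatum and 71.3, 63.97, 57.05, 54.95 and 58.3 RPKM in hippocampus (log2 difference -3.08, SE 0.13, BH-adjusted p 4.34e-09). Agt, which encodes angiotensinogen, differed by -2.07, Gjb6, a connexin, by -1.20, and Thrsp by -1.53. The water channel gene Aqp4 had 38.4 to 46.4 RPKM in striatum and 76.5 to 96.3 RPKM in hippocampus (log2 difference -0.90), and the connexin gene Gja1 differed by -0.73. All 5 hippocampal libraries exceeded all 5 striatal ones for these genes. The summed RPKM of the list was 1023 to 1160.2 in striatum and 1314 to 1441 in hippocampus.

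Oligodendrocyte and myelin genes were higher in striatum in 8 of 16 cases, in hippocampus in 0, and the differences were small (median 0.33, at most 0.53 for Mag). Mog, a myelin glycoprotein, had 30.99, 24.6, 25.3, 27.1 and 31.9 RPKM in striatum and 25.1, 23.5, 19.2, 20.3 and 20.4 RPKM in hippocampus (log2 difference 0.42, SE 0.098, BH-adjusted p 0.00489), and the ranges overlapped. The call for Mag was lost without mouse 283 or 317. Mbp differed by 0.39 (BH-adjusted p 0.0263) and no longer passed without mouse 283, 286 or 317. Without mouse 283 or 317 the count of 8 became 3. Of 7 genes of their precursors 1 was higher in each region, against 17.0 and 18.6 percent of all tested genes, and either single call was lost when 1 mouse was left out: Lhfpl3 without mouse 272 or 283 and C1ql1 without mouse 272, 273, 283 or 286. Microglial genes were higher in striatum in 4 of 12 cases (median 0.46), a count that was 7 without mouse 273, 2 without mouse 272 and 1 without mouse 283 or 317. Cx3cr1, the fractalkine receptor, had 16.6, 13.9, 19.03, 15.9 and 16.1 RPKM in striatum and 13.8, 12.1, 12.5, 11.8 and 11.1 RPKM in hippocampus (log2 difference 0.47, SE 0.09, BH-adjusted p 0.00143), a narrow gap without overlap. Endothelial and mural genes were higher in striatum in 4 of 14 cases, 7 without mouse 273 and 2 without mouse 283 or 317. Flt1, a receptor for vascular endothelial growth factor, differed by 0.35.

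Meningeal and fibroblast genes were higher in hippocampus in 7 of 10 cases, 4 without mouse 272 (median -1.11). Dcn, the proteoglycan decorin, which is on the CA1 list too, had 5.33, 4.68, 4.77, 6.06 and 4.74 RPKM in striatum and 56.2, 43.7, 44.2, 41.2 and 54.1 RPKM in hippocampus (log2 difference -3.15, SE 0.12, BH-adjusted p 1.64e-09). Lum, a related proteoglycan, had 0.274 to 0.828 RPKM in striatum and 1.83 to 4.36 RPKM in hippocampus (-2.57), and Col1a1, a collagen, differed by -1.30. Choroid plexus genes gave 3 higher in hippocampus of 8 tested, 10 with no count filter, 7 with genes kept at a mean of 1 CPM and 10 in a fit of all 60 libraries, and the 5 hippocampal libraries differed widely among themselves. Ttr, the thyroid hormone carrier transthyretin that the choroid plexus secretes, had 0.4698, 0, 0.425, 0.184 and 0.845 RPKM in striatum and 838, 772, 17.2, 12.4 and 9.45 RPKM in hippocampus (log2 difference -9.20, SE 0.80, BH-adjusted p 2.22e-06). The hippocampal libraries of mice 272 and 273 held nearly all of it. The log2 difference lay between -10.15 and -8.17 with 1 mouse left out, and with both mice left out it was -4.77 (BH-adjusted p 3.84e-08). Kl, the gene for klotho, had 10.7, 10.3, 2.15, 2.38 and 2.499 RPKM in hippocampus and 0.199 to 0.393 RPKM in striatum (log2 difference -3.83, and -3.10 without both mice). Prlr, the prolactin receptor, followed the same pattern, at 5.56, 4.71, 0.944, 0.798 and 0.8998 RPKM in hippocampus (-4.37, and -3.32 without both). Clic6, an intracellular chloride channel, was read in striatum at 4.36, 4.598, 3.601, 4.49 and 3.63 RPKM and in hippocampus at 6.99, 7.16, 0.417, 0.249 and 0.4204 RPKM, and did not pass in the edgeR fit of all mice (log2 difference 1.36, BH-adjusted p 0.107). It passed with no count filter (BH-adjusted p 0.0453), with the RIN as a term (0.0358) and without mouse 272 (0.0254) or 273 (0.00431). Without mice 272 and 273 it was higher in striatum (3.41, BH-adjusted p 2.98e-08). The summed RPKM of the choroid list was 67.7 to 80.4 in striatum and 84.6 to 1244 in hippocampus and its part in the other regional differences was not tested. With mice 272 and 273 left out, an alternative added after seeing the data, 5822 genes passed in all, Prox1 differed by -2.95, Neurod6 by -4.08 and Penk by 6.25. Without mouse 286, 5 choroid genes were higher in hippocampus.

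**Figure D4:**
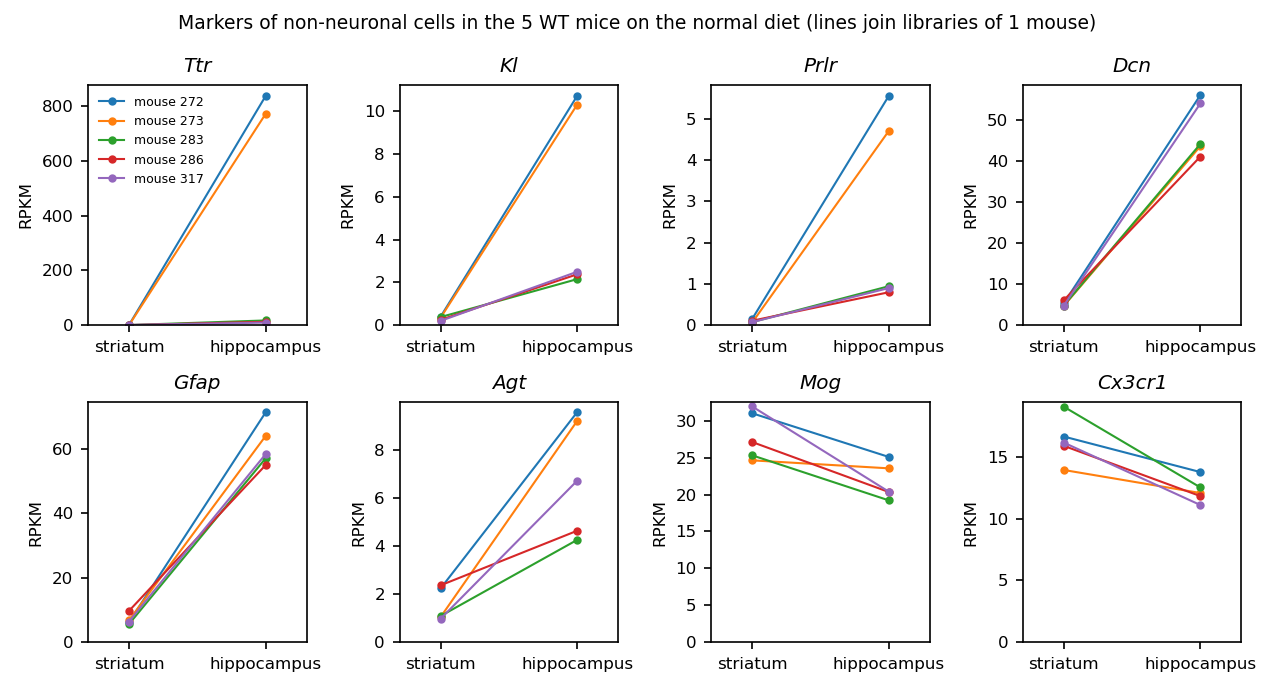
RPKM of 8 markers of non-neuronal cells, each in a panel of its own. Lines join the striatal (left) and hippocampal (right) library of each of the 5 mice. Dcn, among these markers, is on the CA1 list too. Ttr, Kl and Prlr are high in the hippocampal libraries of mice 272 and 273, whereas Gfap is high in all 5 hippocampal libraries (54.95 to 71.3 RPKM).

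Lists of neighbouring regions were examined because a dissection may include them. Genes of the globus pallidus, septum and basal forebrain were higher in striatum in 5 of 8 cases and in hippocampus in 1, Etv1, 2 without mouse 286 (median 3.86). The 5 were Nkx2-1 (1.09 to 2.08 RPKM in striatum and 0.0643 to 0.251 in hippocampus), Lhx8, Trh, Slc5a7 and Chat, several of which cholinergic neurons of the striatum express as well. Thalamic and subicular genes gave 1 higher in striatum and 3 higher in hippocampus of 8. Rora, a nuclear receptor, differed by 0.53, Prkcd, a protein kinase C, by -0.78 and Tshz2, a zinc finger factor, by -2.16. Layer markers of the cortex were higher in striatum in 5 of 12 cases and in hippocampus in 4 (median 0.15). At least 2-fold were all 5 striatal and 2 of the 4 hippocampal differences, and Tbr1 is not among these 2. Of all tested genes, 5.85 percent were at least 2-fold higher in striatum and 7.16 percent in hippocampus. Rgs4, a regulator of G protein signalling, had 378 to 502 RPKM in striatum and 63.7 to 75.9 RPKM in hippocampus (log2 difference 2.77), Lamp5 differed by 1.85, and Tbr1, a marker of deep cortical layers, was higher in hippocampus by a small margin (8.28 to 10.8 against 12.3 to 14.7 RPKM, -0.52). The part of such neighbours in the regional differences was not tested.

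Nuclear genes of oxidative phosphorylation were nearly level. Of 74 tested subunit genes, 4 were higher in striatum and 0 in hippocampus (median 0.037), shares below those of all tested genes. Ndufa1, a subunit of complex I, had 68.9, 51.1, 72.7, 65.98 and 54.8 RPKM in striatum and 48.4, 44.3, 44.3, 47.04 and 38.4 RPKM in hippocampus (log2 difference 0.55, SE 0.11, BH-adjusted p 0.00198), and the other 3 were Ndufs3 (0.37), Ndufs4 (0.40) and Ndufb10 (0.40). These counts depended on single mice: without mouse 273, 11 were higher in striatum and 5 in hippocampus, and without mouse 272 or 283 the 4 became 2. Ndufs3 passed in the fit of all mice and without mouse 273, and in no other fit with 1 mouse left out. Among 15 tested genes of methylglyoxal detoxification and vitamin B6, 2 were higher in striatum, 5 without mouse 273, and 4 in hippocampus, where 17.0 and 18.6 percent of all tested genes were (median -0.10). Pdxk, the kinase that activates vitamin B6, had 36.6, 29.5, 35.7, 33.3 and 36.3 RPKM in striatum and 19.5, 20.6, 18.7, 14.7 and 19.4 RPKM in hippocampus (log2 difference 0.95, SE 0.087, BH-adjusted p 3.78e-06). Pdxk and Glo1 thus separated the regions in opposite directions. Esd, an esterase that acts on glutathione adducts of formaldehyde, was higher in striatum (0.41), and the aldehyde dehydrogenase gene Aldh1a1 in hippocampus (-0.45). Akr1b10 (-0.70) and Aox1 (-0.68) were also higher in hippocampus, but Akr1b10 did not pass without mouse 272, nor Aox1 without mouse 283 or 317.

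The same regional comparison was made in the other 3 combinations of genotype and diet, which came from other mice. In WT mice on the lacking diet 5880 of 13278 genes passed (44.3 percent), in KO mice on the normal diet 5437 of 13023 (41.7 percent) and in the KO group on the lacking diet 6383 of 13091 (48.8 percent). Of the 4635 WT normal-diet calls, 4619, 4603 and 4607 were tested in these groups. In the same direction 4178, 3859 and 4169 passed (90.14, 83.26 and 89.95 percent of all 4635), and 0 passed in the opposite one. As a share of each group's own calls these are 71.05, 70.98 and 65.31 percent. Among the 1649 genes at least 2-fold different in WT mice on the normal diet and tested in all 4 groups, 1567 passed in the same direction in all 4. The log2 difference of Drd1 was 6.33, 6.28, 6.65 and 6.10, that of Penk 6.09, 5.98, 6.07 and 6.08 and that of Prox1 -2.90, -2.89, -2.91 and -3.004, in the order WT normal, WT lacking, KO normal and KO lacking. Ttr was less even, at -9.20, -7.35, -11.17 and -5.59, and Slc17a7 stood at -2.23, -2.76, -3.04 and -2.89. Regional differences of these defining genes were therefore found again in mice that shared no library with the first set. Whether a regional difference itself differed between WT mice on the normal diet and another group was tested as an interaction in edgeR. For each of the 3 other groups, 0 of 13736 genes passed (0 percent), and 361, 895 and 625 genes (2.63, 6.52 and 4.55 percent) had an unadjusted p under 0.05, where 5 percent would under no difference. Without mouse 273 these counts rose to 769, 2938 and 1486, of which 2938 and 1486 are above 5 percent of the genes tested. Without mouse 283 they fell to 261, 489 and 390. The unadjusted counts thus depended on single mice, and 0 genes passed in each case. DESeq2 gave 0, 1 and 0, the 1 being Mdga1 in KO mice on the normal diet, named after its value was seen. Batch 1 held every KO library and batch 2 every WT library, and in the last 2 of these interactions genotype and batch cannot be told apart.

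**Figure D5:**
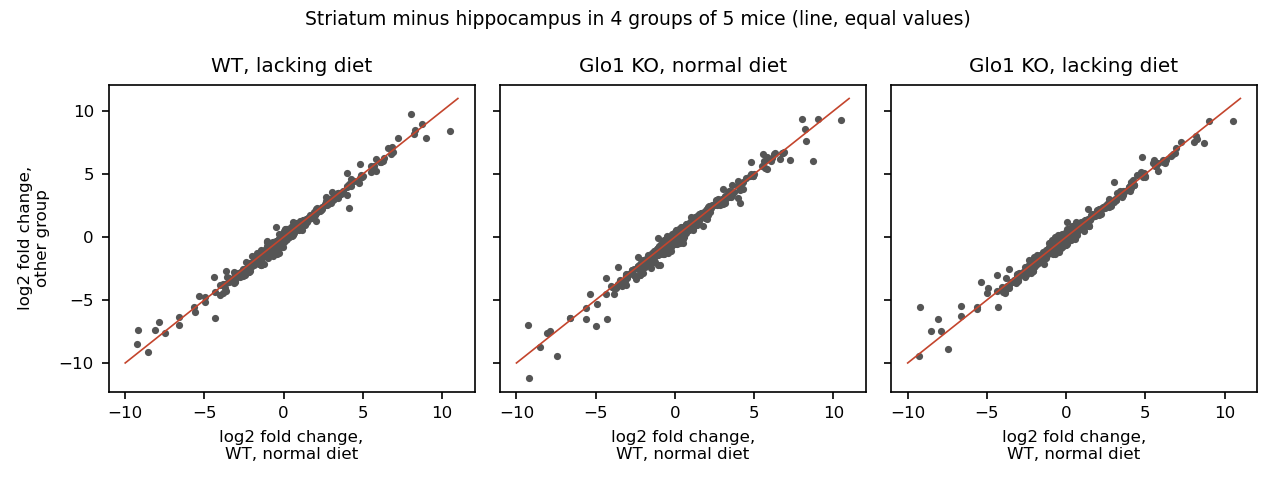
Log2 difference between striatum and hippocampus of each listed gene in WT mice on the normal diet (x axis) against that in each of the 3 other groups (y axes); each point is 1 gene and the line marks equal values. Points lie along the line, as for Drd1 (6.33, 6.28, 6.65 and 6.10 in the 4 groups), and Ttr (-9.20, -7.35, -11.17 and -5.59) lies off it.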

How the data were processed

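Whole-number counts per gene, and RPKM for the same 21999 genes, were deposited by the authors with 1 column per library. Per the submitters' processing notes STAR 2.7.1a, HTSeq 0.9.1 and the build mm10 were used; the annotation and the strand setting are not given in the sources used here. The gene length implied by count, library total and deposited RPKM was constant over the libraries for all 18514 genes with a count (largest relative spread 6e-15), and 0 value columns were left unmatched. Counts were tested in edgeR 4.0.16 (R 4.3.3) by quasi-likelihood F-tests with TMM factors (0.937 to 1.06), the filterByExpr minimum count of 10 and the mouse as a block, because the labels tie both libraries to 1 mouse. In the residuals the pairing was weak. Libraries of the same mouse correlated at a mean of -0.0216 and those of different mice at 0.00807. The 5 same-mouse values ran from -0.4127 in mouse 273 to 0.2212 in mouse 317, and 2 exceeded 0.1. For 1 mouse the striatal library matched its own hippocampal library best. Each mouse gave 1 library per region, and libraries of a region differed by 3.847 to 26.2 in chi-square per gene, so that none were copies. RPKM were used for the values by library. The script was tested on simulated data.

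Members and the 41 gene lists were chosen with earlier results of these data known. Named genes were, per direction, the 10 with the smallest p and the 5 with the widest fold among genes at least 2-fold different, without overlap and with a mean of at least 1 RPKM in the higher region, up to 6 list members by p per list, and list members that went against their list. Slc17a7, Zbtb20, Emx1 and Mbp were fixed as markers, and Foxp1, Bcl11b, Nr4a1 and Arc were chosen after their values were seen. A few genes that these rules pick are not reported here. Gene positions come from RefSeq on GRCm38.p6 (mm10), shared stretches of 75 bases from GENCODE transcripts, and promoters from RefSeq. Alternatives were no block, DESeq2 1.42.0 with its size factors, no TMM factors, no count filter, a mean of 1 CPM as the filter, the RIN as a further term, limma 3.58.1 on log2(RPKM + 1) and log2(RPKM + 0.1), a fit of all 60 libraries and leaving out each mouse. Leaving out mice 273 and 286, or 272 and 273, was added after seeing the data.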

Additional observations from a re-analysis of the deposited data

Results flagged for a closer look

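Among the 5 libraries of a region, a gene was singled out where the highest or lowest library lay far from the rest, measured as its gap to the nearest of the others divided by the range of all 5 (given in brackets, from RPKM). This held for 38 of 567 gene and region groups (6.7 percent). A rate of about 1 in 20 would hold for independent, normally distributed values. RPKM of chosen genes need not meet this, and an excess over that rate was not tested. The striatal library of mouse 273 accounted for 13 of them and the hippocampal library of mouse 286 for 12, which were also the lowest of the 5 of their region on the third principal component.

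In the striatal library of mouse 273 the high genes were Gad2 (0.884), Oprk1 (0.848), Kcna5 (0.843), Sfrp1 (0.842), Dlx1 (0.83), Gabra4 (0.799) and Camk4 (0.763). Low in that library were Rxrg (0.768), Adcy5 (0.765), Adora2a (0.723), Prox1 (0.723) and Csf1r (0.718). Htr5b (1) was singled out there because the other 4 striatal libraries had 0 counts.

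In the hippocampal library of mouse 286 the high genes were Mef2c (0.874), Btg2 (0.838), Gad2 (0.732) and Neurod2 (0.715), and the low genes were Kcnc4 (0.838), Epha6 (0.766), Abcb1a (0.736), Abat (0.729), Fn1 (0.729) and Kcnj9 (0.724). Chat (1) and Serpina9 (1) were singled out there by a single count each.

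Elsewhere fewer genes were picked. In hippocampus, mouse 272 was high in Drd1 (0.826) and Syndig1l (0.766), mouse 273 was high in Gpr6 (0.86) and Reln (0.712) and low in Nov (0.841) and Ndufa10 (0.725), and mouse 283 was high in Glo1 (0.807). In striatum, mouse 272 was low in Kcna4 (0.765), mouse 283 was high in Tshz2 (0.811), and mouse 286 was high in Glo1 (0.762), Ptgds (0.762) and Gfap (0.713) and low in Ccdc153 (0.733).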

How the results depend on the processing

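The 4635 calls became 5104 without the replicate block, 4591 of them shared, 4400 with DESeq2, 4612 without TMM factors, 4882 without a filter, 4657 at a mean of 1 CPM, 4711 with RIN, 4553 and 4526 with limma on log2(RPKM + 1) and log2(RPKM + 0.1), 5958 in a fit of all 60 libraries, and 3581 to 5946 with 1 mouse left out. The calls without mice 273 and 286 (5782) or 272 and 273 (5822) were alternatives chosen after seeing the data. At least 2-fold differences went from 1698 to 988 with limma on log2(RPKM + 1), 448 higher in striatum and 540 in hippocampus, where the added 1 shrinks folds of low genes, and stayed between 1667 and 1762 with 1 mouse left out. The share of calls higher in striatum, 47.7 percent, was 40 percent without TMM factors and 39.9 percent with limma, and the median of all genes moved at most to -0.0608. For the interaction, DESeq2 called 1 gene in KO mice on the normal diet and edgeR 0 in every setting run. Among 285 named genes, 267 passed. Of these, 232 passed in every setting run and 35 lost the call in at least 1, and of 4557 alternative values 0 had the opposite sign where either value passed; sign changes among values that passed in neither fit were not counted. The pairing by mouse was weak in the residuals, and without the replicate block the other groups gave 5350, 5490 and 5870 calls. Counts of list members also moved by over 1.5 times in some settings: microglial genes higher in striatum went from 4 to 1 without TMM factors or with limma and to 7 in the fit of all 60 libraries, myelin genes from 8 to 5 and endothelial and mural genes from 4 to 2 with limma, and acetylcholine receptors from 2 to 4 in the fit of all 60 libraries.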

Other observations

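Immediate early genes varied between mice within the striatum. Egr2 had 1.48, 2.65, 4.57, 9.39 and 6.94 RPKM there. Nr4a1, a nuclear receptor induced by activity, had 6.204, 4.94, 13.4, 18.8 and 19.4 RPKM. Arc, a synaptic immediate early gene, had 14.5, 11.3, 25.6, 32.3 and 33.2 RPKM. The striatal libraries of mice 272 and 273 were the lowest for all 3 genes and for Egr1. In hippocampus the same genes had 0.398 to 1.02, 4.67 to 6.64 and 11.6 to 16.9 RPKM. Arc was higher in striatum with all mice (log2 difference 0.63, BH-adjusted p 0.0171) but did not pass without mouse 283, 286 or 317.

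Several choroid plexus genes had too few counts to be tested. In hippocampus Kcne2, a potassium channel subunit, had 4.65, 4.76, 0.0577, 0.245 and 0 RPKM. Otx2, a homeobox factor, had 3.03, 2.19, 0.4503, 0.128 and 0.108 RPKM, and Folr1, the folate receptor, 1.72, 1.73, 0.222, 0.141 and 0.0796 RPKM. The libraries of mice 272 and 273 were the highest of the 5 for each. Striatal libraries had at most 0.176, 0.182 and 0.1805 RPKM of these genes.

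The prefrontal cortex of the same 5 mice was sequenced too, and no difference from it was tested here. Tbr1 had 43.4 to 55.5 RPKM in prefrontal cortex, beside 8.28 to 10.8 in striatum and 12.3 to 14.7 in hippocampus, so that its cortical level lay above both. Bhlhe22 had 18.4 to 23.5 RPKM and Slc17a7 80.4 to 120.0 RPKM in prefrontal cortex, whereas Prox1 had 2.8 to 3.24 RPKM.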
